A study of Mus musculus with 18 samples.

Results

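Gene expression after estradiol (E2) was compared with gene expression after vehicle in mouse cells that carried scrambled small interfering RNA (siRNA), a control siRNA aimed at no gene. The comparison rested on 6 of the series' 18 RNA sequencing libraries, 3 treated with 1 uM E2 and 3 with vehicle. Genes were taken where the mean level over these 6 libraries was at least 1 CPM (a gene's reads, scaled so that every library has the same total), which left 11849 of the 15288 genes in the table and put 3439 under the minimum. Just inside the minimum lay Fbxo24 at 1.001 CPM and Tuba8 at 1.002 CPM, and just outside it Oas1f at 0.9983 CPM and Nrip2 at 0.9976 CPM.

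The labels describe the cells as pulmonary microvascular endothelial cells from mouse, while the title of the series speaks of vascular smooth muscle. All 18 libraries came from cells in 60 mm dishes that were transfected with 5 ul of a 10 uM siRNA stock by lipofection, 2 hours after a change of medium. At 24 hours after transfection the cells received vehicle, E2 or 16aOHE for 24 hours in 5% serum. The 6 groups of 3 libraries crossed these treatments with scrambled siRNA or siCYP1B1, an siRNA against a cytochrome P450 that hydroxylates estradiol, and every group used here apart from the siCYP1B1 groups carried the scrambled siRNA. No group without siRNA was analysed here, and the labels leave unsaid whether a group's 3 libraries were separate cultures, so p-values reflect the spread among these samples alone, and that spread may be technical.

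Estradiol is the main estrogen of the body and acts through the nuclear receptors encoded by Esr1 and Esr2 and through the membrane receptor encoded by Gper1. Bound receptors switch genes through estrogen response elements in DNA or by joining other transcription factors. CYP1B1 turns estradiol into catechol estrogens, which can cycle to quinones and are cleared by methylation, conjugation and quinone reduction, and estrogens and their metabolites have been studied in the lung vessels because pulmonary arterial hypertension is more frequent in women.

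The depth of the 6 libraries was such that 1 CPM stood for an estimated 20.86 to 24.56 reads. Log-scale correlations were 0.9965 to 0.9975 within the groups and 0.9912 to 0.9924 between E2 and vehicle libraries. The first principal component of the 6 libraries held 58% of the variance and separated the 3 E2 libraries (11.4 to 12.63) from the 3 vehicle libraries (-12.28 to -11.12). Cell type markers did not follow the label closely. Of 12 endothelial markers 7 were in the table, and Pecam1 and Vwf, which define endothelium, reached at most 0.144 and 0.13 CPM in any of the 6 libraries. Cd34 was at 115 to 171 CPM and Flt1 at 67.6 to 89.3 CPM. Of 8 mesothelial markers, Msln was highest at 1527 to 1689 CPM and Krt8 lowest at 0.0814 to 1.04 CPM. Of 10 fibroblast and pericyte markers, Col3a1 was at 2083 to 3555 CPM, and Lum and Rgs5 were under 0.5 CPM in all 6 libraries. Of 6 smooth muscle markers, Myh11, Cnn1 and Lmod1 were under 0.5 CPM in all 6 libraries, and Acta2 was at 14.2 to 35.8 CPM. The leukocyte marker Ptprc reached at most 0.144 CPM, and Cd14 was at 20.5 to 22.8 CPM.

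E2 changed many genes by small amounts. Values were tested as log2(CPM + 1) with limma across all 18 libraries, and a gene was called at a Benjamini-Hochberg adjusted p under 0.05. A number in brackets after a gene's name is its log2 change with E2 against vehicle on this scale. With E2, 3555 of 11849 genes were called (30.0%), 2202 higher (18.6%) and 1353 lower (11.4%). Counts of rises and falls in the gene lists are to be read beside these shares. The share of called genes that were higher was 61.9% with the values as deposited, 51% after quantile normalization and 45.8% after scaling by median-of-ratios factors, so that the balance of small rises and falls depended on the scaling. The median change of all tested genes was 0.034 on the log2 scale. In 4883 tested genes (41.2%) the 3 E2 and the 3 vehicle libraries did not overlap, against 30.0% called, and 3366 of these genes were called.

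Most called changes were slight. Folds in the following counts are those of the log2(CPM + 1) change, which lie below the ratio of mean CPM in low genes. Of the genes called higher, 1625 rose by less than 1.25-fold, 495 by 1.25-fold to 1.5-fold, 75 by 1.5-fold to 2-fold and 7 by 2-fold or more. Of the genes called lower, 869 fell by less than 1.25-fold, 328 by 1.25-fold to 1.5-fold, 121 by 1.5-fold to 2-fold and 35 by 2-fold or more. Most changes of 2-fold or more were falls, and the count of 42 such genes became 103 with log2(CPM + 0.1), 10 with log2(CPM + 5) and 27 with a minimum of 5 CPM. Genes called lower had a median vehicle level of 73.9 CPM and genes called higher one of 48.4 CPM, not divided by gene length. The called rises added 28720 CPM in sum and the sum over the called falls was -31163 CPM.

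**Figure D1:**
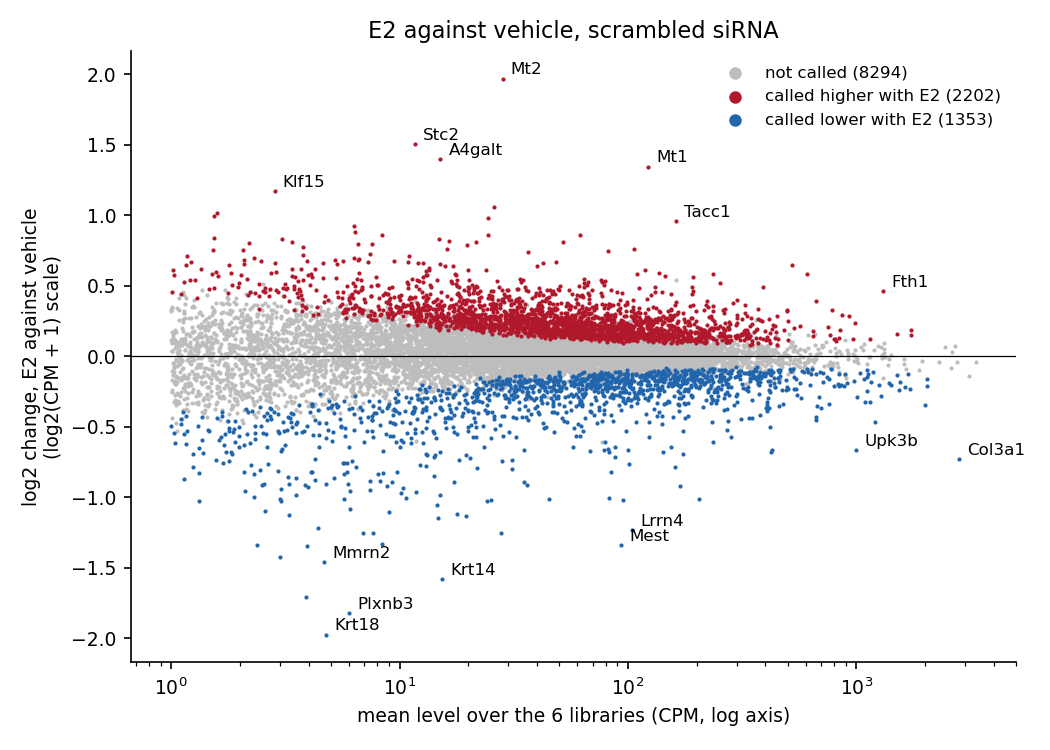
Each point is 1 of the 11849 tested genes, with its mean level over the 6 libraries (CPM, log axis) and its log2 change with E2 (vertical axis, log2(CPM + 1) scale), coloured by the limma call at an adjusted p under 0.05. On this log2 scale 35 called genes fell and 7 rose by 2-fold or more.

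Mt2 and Mt1, which encode small cysteine-rich proteins that bind zinc and copper, gave the first and the fourth largest rise of all called genes. Mt2 (chromosome 8, 94172618 to 94173567, mm10) stood at 11.1, 10.9 and 10.6 CPM with vehicle and 41.7, 48.1 and 46.9 CPM with E2. Its mean CPM rose 4.19-fold (log2 1.97, SE 0.0792, adjusted p = 2.2e-13 by limma). Mt1 (chromosome 8, 94179089 to 94180327, mm10), its neighbour on the same strand, stood at 76.6, 68 and 62.6 CPM with vehicle and 168, 170 and 191 CPM with E2 and rose as well (log2 1.34, SE 0.0732, adjusted p = 3.07e-11 by limma). In both genes every E2 library lay above every vehicle library. Genes with the largest changes were picked on the condition of no overlap, which 41.2% of all tested genes met.

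Metallothionein promoters hold metal response elements, the sites bound by the zinc-sensing factor MTF1, and the RefSeq promoters of both genes are shown for that reason. Each window runs from 250 bases before to 50 bases after the start site in GRCm38.p6, Mt2 at chr8:94172368-94172667 and Mt1 at chr8:94178839-94179138, both on the plus strand. Capitals mark TGCACNC or TGCGCNC on either strand, found at 4 places in Mt2 and 3 in Mt1.
Mt2: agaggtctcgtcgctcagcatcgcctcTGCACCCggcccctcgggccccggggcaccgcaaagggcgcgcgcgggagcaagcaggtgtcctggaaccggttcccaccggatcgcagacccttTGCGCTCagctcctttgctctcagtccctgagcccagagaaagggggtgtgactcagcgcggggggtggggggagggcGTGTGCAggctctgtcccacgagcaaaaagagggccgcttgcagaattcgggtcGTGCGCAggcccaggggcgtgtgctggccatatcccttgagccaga
Mt1: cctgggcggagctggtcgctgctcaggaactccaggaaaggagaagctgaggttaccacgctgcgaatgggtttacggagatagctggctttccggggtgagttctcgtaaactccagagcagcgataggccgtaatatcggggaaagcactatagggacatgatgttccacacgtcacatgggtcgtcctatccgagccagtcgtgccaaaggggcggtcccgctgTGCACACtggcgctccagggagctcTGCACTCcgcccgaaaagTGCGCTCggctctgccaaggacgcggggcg
This short motif is common and was found in 3455 of 9322 promoters of tested genes (37.1%). A match describes the letters only.

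The zinc-related genes beside the metallothioneins moved less. Of 11 tested genes of the metallothionein and zinc list, 7 rose and 1 fell, with a median log2 change of 0.18 against 0.034 for all tested genes. Mtf1, the factor itself, rose by only 0.19 on the log2 scale (adjusted p = 0.03 by limma), a call that was lost in 6 of 14 alternative settings. Among zinc exporters, Slc30a4 rose from 55.4 ± 1.93 to 67.4 ± 3.1 CPM and Slc30a1 from 108 ± 1.99 to 119 ± 2.44 CPM (n = 3 libraries each). The zinc importer Slc39a14 rose by 0.18, whereas the importer Slc39a10 fell from 285 ± 0.861 to 187 ± 8.42 CPM (log2 -0.61). Metallothioneins are also glucocorticoid targets, and of 16 tested glucocorticoid receptor targets 3 rose and 5 fell, or 3 and 8 after quantile normalization. Over all tested genes 18.6% were called higher and 11.4% lower, so the share of rises was near that of all genes. The risers were Mt1, Mt2 and the metabolic transcription factor Klf15, which stood at 1.25, 1.73 and 1.1 CPM with vehicle and 3.51, 4.89 and 4.54 CPM with E2 (log2 1.17, SE 0.139, adjusted p = 2.31e-06 by limma). The 5 falls were Fkbp5 (-0.35), Per1 (-0.25), Tsc22d3 (-0.21), Errfi1 (-0.14) and Angptl4 (-0.83), and the receptor gene Nr3c1 itself was at 231 ± 6.16 CPM with vehicle and 233 ± 13.8 CPM with E2 and was not called.

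Ferritin genes and Hmox1 rose. Of 19 tested heme and iron genes 10 rose and 0 fell (median log2 0.17; limma). Fth1, the ferritin heavy chain and the gene with the largest gain in CPM, stood at 1158, 1084 and 1076 CPM with vehicle and 1474, 1548 and 1538 CPM with E2 (log2 0.46, SE 0.0414, adjusted p = 6.23e-08 by limma). Ftl1, the ferritin light chain, stood at 443, 390 and 386 CPM with vehicle and 719, 513 and 701 CPM with E2 (log2 0.65, SE 0.0916, adjusted p = 1.95e-05 by limma). The E2 libraries of both lay above all vehicle libraries, a condition for the genes picked for the largest CPM differences. The spread was wider for Ftl1, whose processed copies in the genome make its level uncertain. Hmox1, the heme oxygenase that frees iron from heme, stood at 198, 184 and 185 CPM with vehicle and 269, 283 and 299 CPM with E2 (log2 0.58, SE 0.0464, adjusted p = 1.12e-08 by limma). The iron exporter Slc40a1 rose by 0.48, the ferrireductase Steap3 by 0.57, the ferritin receptor of autophagy Ncoa4 by 0.23, and the rate-limiting heme synthesis enzyme Alas1 by 0.17. Of the other heme breakdown enzymes, Hmox2 (0.07), Blvra (-0.06) and Blvrb (0.17) were not called. The transferrin receptor gene Tfrc was at 71.2 ± 3.7 CPM with vehicle and 68.1 ± 3.05 CPM with E2 and was not called.

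Ferritins and Hmox1 are also targets of NRF2, the factor that switches on antioxidant genes, and the other NRF2 targets were counted in 2 lists. Of 24 tested glutathione and thioredoxin genes, 12 rose and 2 fell (median 0.15), and of 19 tested genes of NADPH supply and quinone reduction, 8 rose and 2 fell (median 0.16). Prdx6, a peroxiredoxin, stood at 501, 494 and 467 CPM with vehicle and 724, 716 and 745 CPM with E2 (log2 0.58, SE 0.0455, adjusted p = 9.89e-09 by limma). Nqo1, a quinone reductase, stood at 158, 158 and 147 CPM with vehicle and 212, 237 and 237 CPM with E2 (log2 0.56, SE 0.0595, adjusted p = 5.73e-07 by limma). The cystine importer Slc7a11 rose by 0.64, the sulfiredoxin Srxn1 by 0.44, the glutathione synthesis enzyme Gclc by 0.35, the pentose phosphate enzyme G6pdx by 0.39 and the autophagy receptor Sqstm1 by 0.39. Aldh3a1, an aldehyde dehydrogenase, fell (-0.58), as did the secreted peroxidase Gpx3 (-0.33). The factor's own gene Nfe2l2 (348 ± 19.6 CPM with vehicle and 331 ± 13.3 CPM with E2) and its inhibitor's gene Keap1 (128 ± 3.21 CPM with vehicle and 137 ± 2.63 CPM with E2) were not called.

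Amino acid stress genes rose. ATF4 is a transcription factor whose translation rises when amino acids run short or proteins misfold, and of 37 tested targets and partners of ATF4, 26 rose and 0 fell (median 0.25). Stc2, a secreted glycoprotein of the stanniocalcin family, stood at 5.75, 5.71 and 5.35 CPM with vehicle and 16.9, 17.8 and 18.5 CPM with E2 (log2 1.50, SE 0.0953, adjusted p = 3.54e-10 by limma). Trib3, a pseudokinase that restrains AKT, stood at 11.4, 10.1 and 9.88 CPM with vehicle and 18.4, 19.5 and 20.3 CPM with E2 (log2 0.83, SE 0.0792, adjusted p = 1.35e-07 by limma). Aldh1l2, a mitochondrial folate enzyme, stood at 14.9, 18.2 and 15.4 CPM with vehicle and 34.1, 32.6 and 31.4 CPM with E2 (log2 0.98, SE 0.0814, adjusted p = 2e-08 by limma). None of the 3 had an E2 library as low as its highest vehicle library, a condition for the genes picked for the largest changes.

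Other risers of this list were the glutathione-degrading enzyme Chac1 (0.79), the asparagine synthetase Asns (0.52), the lipoprotein receptor Vldlr (0.81), the stress factors Nupr1 (0.49) and Ddit3 (0.44), the serine pathway phosphatase Psph (0.44), the leucine transporter Slc7a5 (0.36) and Atf4 itself, which rose from 198 ± 10.5 to 252 ± 12.2 CPM (0.35). Atf3 (0.01), Psat1 (-0.02), Phgdh (-0.06) and Cebpb (0.05) were not called. The other arm of the stress of the endoplasmic reticulum did not move alike. Of 20 tested chaperone and quality control genes 5 rose and 3 fell (median 0.01), and with median-of-ratios factors 4 rose and 5 fell (median -0.03). The main chaperone gene Hspa5 was at 1339 ± 27.8 CPM with vehicle and 1333 ± 16.5 CPM with E2 and was not called, Calr (-0.13) and Xbp1 (-0.15) fell, and Dnajb9 rose by 0.44. Of 20 tested aminoacyl-tRNA synthetase genes, which include known ATF4 targets, 6 rose and 4 fell, or 3 and 4 with median-of-ratios factors, and the rises were led by Sars (0.31) and Aars (0.26).

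ATF4 binds amino acid response elements, and promoters of 3 genes that rose are shown with the core in capitals on either strand (TGATG, any base, then AA). The windows are Chac1 at chr2:119350992-119351291 on the plus strand, Asns at chr6:7693160-7693459 on the minus strand and Trib3 at chr2:152344011-152344310 on the minus strand.
Chac1: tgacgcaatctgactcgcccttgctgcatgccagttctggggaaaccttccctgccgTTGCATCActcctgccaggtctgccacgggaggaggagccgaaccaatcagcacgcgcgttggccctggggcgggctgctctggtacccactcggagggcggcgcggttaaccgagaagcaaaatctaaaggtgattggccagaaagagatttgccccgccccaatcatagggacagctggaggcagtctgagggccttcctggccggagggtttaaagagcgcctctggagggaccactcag
Asns: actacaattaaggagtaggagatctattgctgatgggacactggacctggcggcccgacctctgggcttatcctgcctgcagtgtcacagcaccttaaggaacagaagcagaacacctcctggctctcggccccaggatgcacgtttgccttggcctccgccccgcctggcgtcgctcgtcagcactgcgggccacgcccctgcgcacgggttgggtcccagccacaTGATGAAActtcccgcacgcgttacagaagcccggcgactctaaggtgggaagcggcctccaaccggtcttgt
Trib3: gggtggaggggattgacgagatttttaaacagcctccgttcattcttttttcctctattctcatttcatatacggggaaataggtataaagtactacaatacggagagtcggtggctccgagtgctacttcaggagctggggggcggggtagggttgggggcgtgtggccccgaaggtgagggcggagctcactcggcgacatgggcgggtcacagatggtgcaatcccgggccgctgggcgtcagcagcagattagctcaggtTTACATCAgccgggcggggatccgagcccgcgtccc
The core lay in 9 of the 32 promoters of this list that RefSeq gave (28.1%) and in 183 of 9322 promoters of tested genes (1.96%). Of the 9 genes with the core, Atf3 and Pycr1 were not called and the other 7 rose. The list was made of known targets, so its share describes the list.

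Hypoxia-responsive genes rose in part. Of 25 tested genes of the hypoxia list, which HIF factors switch on when oxygen is short, 14 rose and 1 fell (median 0.18). Bnip3, which marks mitochondria for removal, stood at 3.98, 4.59 and 3.98 CPM with vehicle and 7.85, 8.35 and 9.51 CPM with E2 (log2 0.88, SE 0.0985, adjusted p = 1.04e-06 by limma). Pdk1, a kinase that keeps pyruvate out of mitochondria, stood at 12, 12.2 and 10.7 CPM with vehicle and 20.7, 21.2 and 21.8 CPM with E2 (log2 0.82, SE 0.0749, adjusted p = 8.13e-08 by limma). Epas1, the gene of HIF-2 alpha, rose from 27.1 ± 0.691 to 46 ± 3.18 CPM (0.74) and Hif1a only from 259 ± 3.73 to 280 ± 10.4 CPM (0.11). The libraries of Bnip3, Pdk1 and Epas1 did not overlap between the groups. Bnip3 and Pdk1 were among the genes picked on that condition.

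The adenylate kinase Ak4 (0.83), the growth factor gene Vegfa (0.47), the glucose transporter Slc2a1 (0.45), the oxidoreductase Ero1l (0.52) and Ndrg1 (0.54) rose too, and the oxygen sensor Egln3 fell (-0.31). Several classical members were not called, among them Ankrd37 (-0.03), Higd1a (-0.07) and Car12 (-0.09). Of 18 tested glycolysis genes, 6 rose and 0 fell as deposited (median 0.11), and 4 rose and 1 fell with median-of-ratios factors (median 0.07). The risers were Slc2a1, Pfkl (0.36), Hk2 (0.28), Pfkm (0.23), Tpi1 (0.12) and Aldoa (0.11), and Ldha (-0.08) and Pkm (0.06) were not called.

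Lysosome genes rose, and among all lists theirs held the highest share of rises. Of 42 tested genes, 33 rose and 2 fell (median 0.22), and with median-of-ratios factors 28 rose and 2 fell. Neu1, a sialidase, stood at 67.5, 57.6 and 63.5 CPM with vehicle and 83.7, 94.6 and 93.8 CPM with E2 (log2 0.52, SE 0.0547, adjusted p = 4.83e-07 by limma). Mcoln1, the calcium channel of the lysosome membrane, stood at 56.2, 46.3 and 49.8 CPM with vehicle and 70.5, 71.3 and 73.8 CPM with E2 (log2 0.50, SE 0.0637, adjusted p = 6.05e-06 by limma). The 3 E2 libraries were above the 3 vehicle libraries in both of these genes.

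The rises covered enzymes, transporters and membrane proteins alike. Among enzymes that degrade heparan sulfate and related chains, Idua (0.54) and Naglu (0.50) rose. Among proteases, Ctsl rose from 775 ± 20.7 to 950 ± 36.5 CPM (0.29) and Ctsb by 0.20, whereas Ctsc fell (-0.18). The membrane proteins Lamp1 (0.12) and Lamp2 (0.28), the sphingolipid activator Psap (0.16), the cholesterol exporter Npc1 (0.37) and the proton pump subunits Atp6v0d1 (0.26) and Atp6v1h (0.23) rose. Tfeb, a transcription factor that drives lysosome genes, fell from 28.9 ± 0.984 to 21.7 ± 0.738 CPM (log2 -0.40, SE 0.062, adjusted p = 5.51e-05 by limma), and its relative Tfe3 was not called (0.04).

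TFEB and its relatives bind the CLEAR element, whose core was searched as the E-box CACGTG with a T before it and an A after it, a palindrome that also holds the hypoxia core ACGTG. Promoters of 2 lysosome genes that rose are shown with it in capitals, Mcoln1 at chr8:3500269-3500568 on the plus strand and Gla at chrX:134600956-134601255 on the minus strand.
Mcoln1: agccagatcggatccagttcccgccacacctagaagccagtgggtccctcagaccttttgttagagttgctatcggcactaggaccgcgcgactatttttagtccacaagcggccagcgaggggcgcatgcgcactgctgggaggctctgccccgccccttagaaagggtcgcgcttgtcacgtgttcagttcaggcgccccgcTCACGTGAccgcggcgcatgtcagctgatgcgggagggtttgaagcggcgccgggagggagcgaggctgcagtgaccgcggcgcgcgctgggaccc
Gla: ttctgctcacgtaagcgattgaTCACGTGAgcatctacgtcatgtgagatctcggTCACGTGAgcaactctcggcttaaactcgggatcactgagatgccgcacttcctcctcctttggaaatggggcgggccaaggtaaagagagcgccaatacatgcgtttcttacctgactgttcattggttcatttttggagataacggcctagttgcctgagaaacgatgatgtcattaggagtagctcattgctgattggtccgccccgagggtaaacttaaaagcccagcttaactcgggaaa
This core lay in 4 of 34 promoters of the lysosome list (11.8%), in 59 of 1749 of genes called higher (3.37%), in 13 of 1026 of genes called lower (1.27%) and in 191 of 9322 in all (2.05%). The shorter E-box lay in 11 of the 34 lysosome promoters (32.4%), in 9 of 31 promoters of the ribosome biogenesis list (29%), of which 23 of 37 genes fell, and in 976 of 9322 (10.5%). Both motifs were added after the list's values had been seen.

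Glycosphingolipids are membrane lipids with sugar chains that are built in the Golgi and broken down in the lysosome. Of 28 tested genes of this pathway 12 rose and 5 fell (median 0.12). A4galt, which makes the globo-series lipid Gb3, had the third largest rise of all genes and stood at 8.34, 7.53 and 7.64 CPM with vehicle and 21.4, 23.7 and 21.7 CPM with E2 (log2 1.40, SE 0.0758, adjusted p = 3.07e-11 by limma). The degrading enzymes Neu1, Galc (0.36), Gla (0.30), Smpd1 (0.29) and Hexa (0.22) rose. On the synthetic side, B4galt5 (0.25) and St3gal5 (0.17) rose, while Ugcg (-0.17), B4galt6 (-0.18), Cerk (-0.19), Cers5 (-0.12) and St8sia1, which makes the ganglioside GD3 (-0.69), fell.

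Lipid genes were split. Of 31 tested cholesterol genes 4 rose and 9 fell (median -0.06). Synthesis genes that fell were Idi1 (-0.29), Cyp51 (-0.27), Hmgcs1 (-0.20), Sqle (-0.17), Pmvk (-0.21) and their regulator Srebf2 (-0.19). The sterol exporters Abca1 (-0.33) and Abcg1 (-0.37) fell as well. Of 39 tested fatty acid and lipoprotein genes 11 rose and 6 fell, beside 18.6% and 11.4% of all tested genes. Their median was 0.01 as deposited and -0.03 with median-of-ratios factors. The lipase Pnpla2 (0.45) and the oxidation enzyme Acadvl (0.31) were among the rises. The desaturase Scd1 (-0.37), the elongase Elovl6 (-0.38), Fabp5 (-0.52) and the lipase inhibitor Angptl4 (-0.83) were among the falls.

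Estrogen receptor genes were low or not called. Esr1 stood at 13.7, 16.7 and 13.4 CPM with vehicle and 14.7, 19.7 and 17.3 CPM with E2 and was not called (log2 0.22, SE 0.0959, adjusted p = 0.0875 by limma), and its groups overlapped. Without vehicle library 2 or without E2 library 1 its log2 difference was 0.32 and it was called (adjusted p = 0.0248 and 0.019 by limma). Esr2 reached at most 0.244 CPM and Gper1 at most 0.128 CPM in these 6 libraries, and both were under the minimum. Esrra, an orphan receptor that does not bind estradiol, rose by 0.16 (adjusted p = 0.034 by limma), a call lost in 7 of 14 alternative settings. The coactivator genes Ncoa1 (0.34) and Ncoa3 (0.17) and the corepressor Nrip1 (0.32) rose.

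Classical estrogen receptor targets did not move in 1 direction. Of 29 tested targets 6 rose and 7 fell, and their median was 0.01 as deposited and -0.03 with median-of-ratios factors. Stc2, Vegfa, Nrip1, Sgk3 (0.30), Bcl2 (0.28) and Ctsd (0.12) rose. Krt18, Krt19, Cxcl12 (-0.40), Myc (-0.38), Igfbp4 (-0.36), Klf10 (-0.23) and Xbp1 fell. The cyclin gene Ccnd1 (0.01), Areg (0.01) and Rara (0.07) were not called. AGGTCA, 1 side of the palindromic estrogen response element on either strand, was in 210 of 1749 promoters of genes called higher (12%), 127 of 1026 of genes called lower (12.4%) and 1070 of all 9322 (11.5%). Among genes called and changed by 1.5-fold or more, it was in 9 of 61 promoters of rises (14.8%) and 17 of 100 of falls (17%). The full palindrome was in 0 of the 9322 windows, which says only that these letters are not within these windows.

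Enzymes that act on estrogens rose in part. Of 11 tested genes of estrogen metabolism 6 rose and 0 fell (median 0.20), and 2 or 3 fell under the other scalings. Cyp1b1 stood at 89.1, 91.4 and 96.1 CPM with vehicle and 117, 119 and 117 CPM with E2 (log2 0.35, SE 0.0345, adjusted p = 2.39e-07 by limma), without overlap. Nqo1, which reduces estrogen quinones, the conjugating enzymes Ugt1a6a (0.28) and Gstp1 (0.24) and the 17-beta-dehydrogenases Hsd17b4 (0.19) and Hsd17b11 (0.20) rose. Cyp1b1, Nqo1 and Ugt1a6a are also targets of the aryl hydrocarbon receptor. Of 10 tested genes of that pathway 5 rose and 1 fell. The receptor gene Ahr (-0.02) and its target Tiparp (0.07) were not called.

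**Figure D2:**
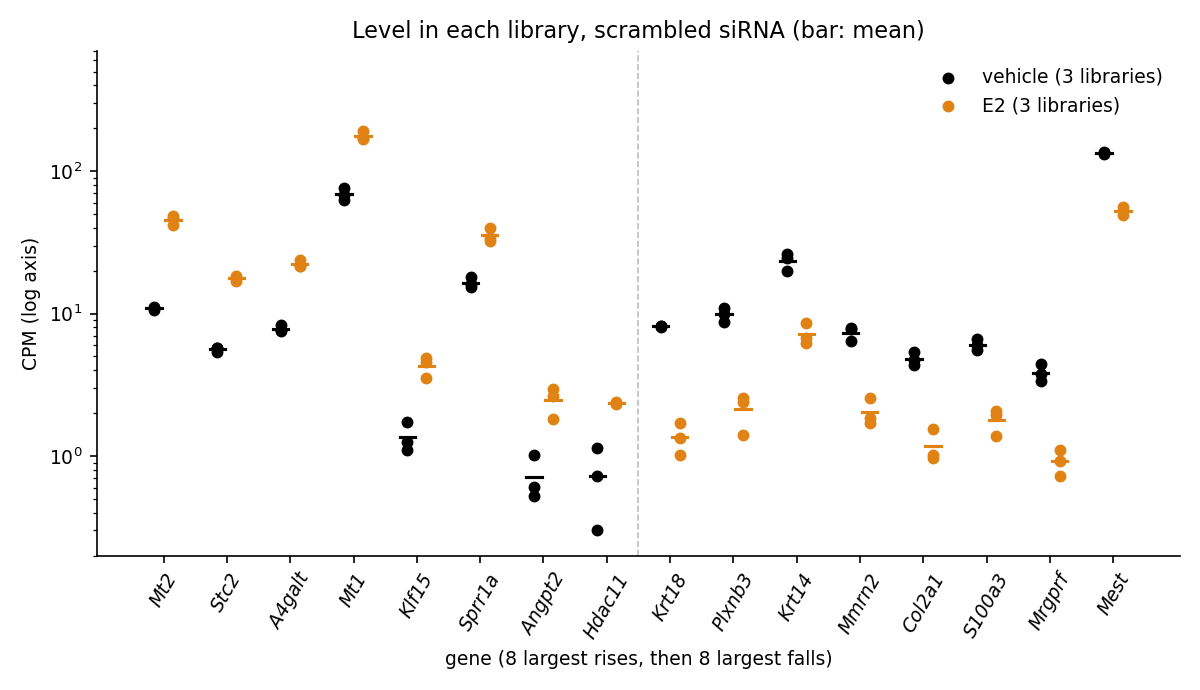
Level of the 8 genes with the largest rises and the 8 with the largest falls (horizontal axis) in each of the 3 vehicle and 3 E2 libraries (points; CPM, log axis), with the group means as bars. Genes were picked among called genes whose groups do not overlap, and they run from Mt2, with a rise of 4.19-fold in mean CPM, to Krt18, with a fall of 6.06-fold.

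Several keratins and most tested mesothelial markers fell. Mesothelial cells line the lung surface and make keratins, uroplakins and mesothelin. Krt18 (chromosome 15, 102028216 to 102032026, mm10), a keratin of simple epithelia, stood at 8.1, 8.18 and 8.23 CPM with vehicle and 1.01, 1.71 and 1.33 CPM with E2. Its mean CPM fell 6.06-fold (log2 -1.98, SE 0.134, adjusted p = 1.11e-09 by limma). Krt14, a keratin of basal epithelium, stood at 20, 24.5 and 26.1 CPM with vehicle and 6.71, 6.23 and 8.65 CPM with E2 (log2 -1.58, SE 0.121, adjusted p = 7.12e-09 by limma). Lrrn4, a mesothelial surface protein, stood at 147, 143 and 151 CPM with vehicle and 59.9, 65 and 61.3 CPM with E2 (log2 -1.23, SE 0.0488, adjusted p = 2.2e-13 by limma). The lowest vehicle library lay above the highest E2 library in all 3 genes, which were picked on that condition.

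Of 21 tested mesothelial markers, 14 fell and 0 rose (median -0.29), and of 17 tested epithelial keratin and junction genes, 12 fell and 1 rose (median -0.44). The lists share Krt7, Krt18, Krt19 and Cdh1. Upk3b, a uroplakin, stood at 1221, 1240 and 1210 CPM with vehicle and 765, 747 and 803 CPM with E2 (log2 -0.66, SE 0.0373, adjusted p = 4.95e-11 by limma). Krt19 fell from 526 ± 19.9 to 332 ± 9.67 CPM (-0.66), whereas the keratin Krt15 (36.2 CPM with vehicle and 39 CPM with E2) was not called. Falls were also called for Upk1b (-0.29), the cadherin Cdh1 (-0.92), the claudin Cldn1 (-1.01), the keratin Krt80 (-1.10), the desmosome protein Dsp (-0.44) and the transcription factor Wt1 (-0.12). Msln (1645 ± 12.3 CPM with vehicle and 1585 ± 90.7 CPM with E2) and Bnc1 (173 ± 8.4 CPM with vehicle and 177 ± 1.46 CPM with E2) were not called, so the fall was not shared by every marker. The 1 rise was Sprr1a, a precursor of the cornified envelope, at 16, 18 and 15.3 CPM with vehicle and 32.1, 34.1 and 39.9 CPM with E2 (log2 1.06, SE 0.0861, adjusted p = 1.43e-08 by limma). Summed over the 8 mesothelial markers, the level was 5066 to 5149 CPM in vehicle and 3972 to 4223 CPM with E2. In these bulk samples fewer cells of a type and less RNA per cell cannot be told apart.

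Markers of other cell types fell too. Of 9 tested endothelial genes 7 fell and 0 rose (median -0.32), while the defining markers Pecam1 and Vwf were near 0. Mmrn2, an endothelial matrix protein, stood at 6.38, 7.75 and 7.86 CPM with vehicle and 2.54, 1.71 and 1.84 CPM with E2 (log2 -1.46, SE 0.137, adjusted p = 1.17e-07 by limma). The adhesion molecule Esam fell from 27.9 ± 1.6 to 15.7 ± 1.36 CPM (-0.79), and the vascular growth factor receptors Flt1 (-0.32) and Flt4 (-0.28) and the stem and vessel marker Cd34 (-0.27) fell as well. Kdr was at 4.49 ± 0.174 CPM with vehicle and 3.71 ± 0.804 CPM with E2 and was not called. Summed over 7 endothelial markers in the table the level was 239 to 275 CPM in vehicle and 200 to 211 CPM with E2.

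Of 16 tested smooth muscle and contractile genes, 10 fell and 0 rose (median -0.20). Acta2, smooth muscle actin, stood at 30.6, 31.8 and 35.8 CPM with vehicle and 15.9, 14.2 and 16.5 CPM with E2 (log2 -1.03, SE 0.0913, adjusted p = 4.91e-08 by limma). The widely expressed cytoskeletal genes Flna (-0.24), Vcl (-0.22), Tpm1 (-0.19) and Tpm4 (-0.23), and Srf, the factor that drives them (-0.17), fell by small amounts, and Actb fell from 2202 ± 40.5 to 1898 ± 94.4 CPM (-0.22). Summed over the 6 smooth muscle markers, of which 3 were near 0, the level was 35.4 to 40.5 CPM in vehicle and 16.9 to 20.7 CPM with E2. Most of this sum was Acta2, and Tagln (3.64 CPM with vehicle and 2.68 CPM with E2) was not called. Of 11 tested fibroblast and pericyte genes 7 fell and 1 rose, and the sum over the 10 markers was 6563 to 6922 CPM in vehicle and 4272 to 4785 CPM with E2. Pdgfrb, the receptor of pericytes, was the riser (0.33). Of 3 tested leukocyte genes 0 were called. The part of a changed mix of cells in the other results was not tested.

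Of 21 tested collagen chains 12 fell and 1 rose (median -0.26). The riser was Col11a2 (0.68), a call lost in 8 of 14 alternative settings and not tested with a minimum of 5 CPM. The fibrillar chains Col5a2 (0.00) and Col11a1 (0.07) were not called. Col3a1 (chromosome 1, 45311538 to 45349706, mm10), the chain that lost most reads, stood at 3548, 3426 and 3555 CPM with vehicle and 2098, 2167 and 2083 CPM with E2 (log2 -0.73, SE 0.0338, adjusted p = 2.28e-12 by limma). Col1a1 stood at 2103, 2195 and 2387 CPM with vehicle and 2028, 1721 and 1537 CPM with E2 (log2 -0.35, SE 0.0801, adjusted p = 0.00249 by limma). The partner chain of Col1a1, Col1a2, stood at 496, 516 and 553 CPM with vehicle and 347, 331 and 300 CPM with E2 (log2 -0.68, SE 0.0474, adjusted p = 1.71e-09 by limma). All 3 genes fell without overlap, Col1a1 with the widest spread. Col3a1 and Col1a1 were among the genes picked on that condition.

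The largest fall of a chain was that of Col2a1, the cartilage collagen, from 4.81 ± 0.519 to 1.17 ± 0.319 CPM (-1.42), followed by Col6a2 (-0.92) and Col9a3 (-0.76). Col4a1 (0.04) and Col4a2 (0.10), which build basement membranes, were not called. Of the crosslinking enzymes, Lox fell from 490 ± 54 to 346 ± 44.6 CPM (-0.50). Loxl3 (-0.42) and the procollagen protease enhancers Pcolce (-0.34) and Pcolce2 (-0.74) fell too, while the lysyl hydroxylase Plod1 rose by 0.43. Of 21 tested collagen processing genes 3 rose and 6 fell in all.

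Of 30 tested other matrix genes 2 rose and 13 fell (median -0.19), with the 2 risers Ltbp1 (0.21) and Ltbp3 (0.19), which hold TGF-beta in the matrix. Tnc (-0.96), Ltbp2 (-0.96), the hyaluronan synthase Has1 (-0.82), the proteoglycan Dcn (-0.42), Fbln2 (-0.29) and Sparc (-0.22) fell, and the fibronectin gene Fn1 was at 3274 ± 126 CPM with vehicle and 2987 ± 463 CPM with E2 and was not called. Among matrix proteases and their inhibitors, 6 of 24 rose and 9 fell. The collagenase Mmp13 (0.72) and the stromelysin Mmp3 (0.68) rose, and the aggrecanases Adamts1 (-0.82) and Adamts5 (-0.76), the gelatinase Mmp2 (-0.33) and the inhibitors Timp1 (-0.36) and Timp3 (-0.23) fell.

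Jag1, a Notch ligand, stood at 21.5, 20.8 and 19.5 CPM with vehicle and 7.71, 10.2 and 8.44 CPM with E2 (log2 -1.15, SE 0.0998, adjusted p = 3.47e-08 by limma). The Notch target Nrarp (-0.65) and the Notch-modifying enzyme Lfng (-0.53) fell, while the targets Hes1 (-0.10) and Hey2 (-0.13) and the receptors Notch1 (-0.09) and Notch2 (0.09) were not called. The growth factor receptor Fgfr1 (0.71) and the R-spondin receptor Lgr6 (0.80) rose. In the list of Notch, Wnt and FGF genes 3 of 31 rose and 7 fell.

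Plxnb3, a receptor for guidance proteins of the semaphorin family, had the second largest fall of all called genes. It stood at 10, 8.78 and 11 CPM with vehicle and 1.4, 2.4 and 2.57 CPM with E2 (log2 -1.82, SE 0.141, adjusted p = 8.25e-09 by limma). Of 29 tested plexin, semaphorin and other guidance genes 3 rose and 9 fell, with Sema3d at -0.70 and the related receptor gene Plxnb2 (1140 ± 34 CPM with vehicle and 1136 ± 77.2 CPM with E2) not called. Among 16 angiogenic genes 2 rose and 6 fell. Angpt2, an antagonist of the TIE2 receptor, stood at only 0.527, 0.606 and 1.01 CPM with vehicle and 2.63, 1.83 and 2.96 CPM with E2 (log2 1.02, SE 0.229, adjusted p = 0.00204 by limma), and Vegfa was the other riser. Angpt2 overlaps Mcph1 on the other strand, which was at 42.6 CPM with vehicle and 47.3 CPM with E2, and since no source used here says whether counting used strand, reads of the 2 genes cannot be told apart, nor can those of Esrra and Trmt112, Mest and Copg2, or Timp3 and Syn3. The endothelin gene Edn1 fell from 5.52 ± 0.508 to 2.43 ± 0.324 CPM (-0.93).

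Several genes of the IGF axis fell. Of 20 tested genes 3 rose and 9 fell (median -0.14). Pappa, the protease that frees IGF from its binding proteins and that STC2 inhibits, stood at 20.2, 27.1 and 27.5 CPM with vehicle and 9.69, 12.4 and 10.5 CPM with E2 (log2 -1.12, SE 0.107, adjusted p = 1.43e-07 by limma). Mest, an imprinted gene, stood at 136, 135 and 131 CPM with vehicle and 49.4, 52.5 and 55.6 CPM with E2 (log2 -1.34, SE 0.0605, adjusted p = 1.71e-12 by limma), and Copg2, which overlaps it on the other strand, was at 50 CPM in vehicle and 52.1 CPM with E2. The binding proteins Igfbp5 (-0.79), Igfbp6 (-0.46) and Igfbp4 (-0.36) and the insulin receptor substrates Irs1 (-0.24) and Irs2 (-0.24) fell. The insulin receptor gene Insr (0.29), Stc2 and Igfbp3 (0.21) rose.

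Of 25 tested TGF-beta genes 2 rose and 4 fell (median -0.01). The co-receptor Tgfbr3 rose from 60.6 ± 2.07 to 103 ± 8.96 CPM (0.75), the ligands Tgfb3 (-0.39) and Inhba (-0.72) fell, and the type 1 and type 2 receptor genes Tgfbr1 (-0.03) and Tgfbr2 (0.06) were not called. Of 17 tested BMP genes 3 rose and 4 fell, and the median was 0.03 as deposited and -0.01 with median-of-ratios factors. Bmpr2, the receptor gene mutated in heritable pulmonary arterial hypertension, was at 91.4, 111 and 112 CPM with vehicle and 106, 130 and 116 CPM with E2 (log2 0.16, SE 0.0835, adjusted p = 0.165 by limma), was not called, and its groups overlapped. Smad9 (0.67) and Id1 (0.23) rose, and Id2 (-0.37), Smad6 (-0.27), Gdf6 (-0.50) and the antagonist Fst (-0.51) fell. In the list of CCN and YAP targets 2 of 18 rose and 7 fell, with Ctgf at -0.57, Ankrd1 at -0.50 and Nov at -0.61.

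Proliferation genes fell by small amounts. Of 50 tested genes of G2 and mitosis 1 rose and 25 fell (median -0.11), and of 49 tested genes of G1, S phase and DNA replication 4 rose and 17 fell (median -0.08), or 3 and 26 with median-of-ratios factors. The mitotic kinase Plk1 stood at 174, 174 and 173 CPM with vehicle and 151, 136 and 141 CPM with E2 (log2 -0.28, SE 0.0464, adjusted p = 0.000105 by limma). The cell cycle transcription factor Mybl2 (-0.30), the kinase Aurka (-0.24), the thymidine kinase Tk1 (-0.34) and the ribonucleotide reductase Rrm1 (-0.29) fell. Pcna (-0.01), Foxm1 (-0.04) and Ccnd1 were not called, and E2f1 (0.20) and Ccnd2 (0.19) rose. The CHR motif TTTGAA, which marks genes of G2 and mitosis, was in 28 of the 41 promoters of that list (68.3%) and in 1080 of 9322 promoters of tested genes (11.6%). The first share describes the list.

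Ribosome biogenesis genes fell. Of 37 tested genes 1 rose and 23 fell (median -0.19). Myc, the factor that drives many of them, stood at 152, 143 and 144 CPM with vehicle and 117, 111 and 109 CPM with E2 (log2 -0.38, SE 0.0564, adjusted p = 3.91e-05 by limma). The RNA polymerase I subunit Polr1b (-0.30), the assembly factors Rrs1 (-0.31) and Tsr1 (-0.31), the pseudouridine synthase Dkc1 (-0.29) and nucleolin, Ncl, from 919 ± 9.35 to 797 ± 35.3 CPM (-0.21), fell. Nop10 rose by 0.22, and Ubtf, a factor of ribosomal RNA transcription, was not called (0.00).

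p53 targets were mixed. Of 26 tested targets 7 rose and 5 fell, or 6 and 3 after quantile normalization, beside 18.6% and 11.4% of all tested genes as deposited. Their median was 0.02 as deposited, 0.00 after quantile scaling and -0.02 with median-of-ratios factors. Mdm2, which degrades p53, stood at 879, 831 and 816 CPM with vehicle and 1035, 1004 and 1039 CPM with E2 (log2 0.29, SE 0.0437, adjusted p = 4.69e-05 by limma), and Ccng1 (0.19), Trp53inp1 (0.33) and Sesn1 (0.37) rose. Cdkn1a, the main cell cycle inhibitor among the targets, was at 1320 ± 18.5 CPM with vehicle and 1337 ± 39.3 CPM with E2 and was not called, and the p53 gene Trp53 fell (-0.23).

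Of 44 tested interferon-response genes 12 rose and 2 fell both as deposited (median 0.06) and after quantile normalization, and 6 rose and 4 fell with median-of-ratios factors. Rsad2, an antiviral enzyme, stood at 102, 96.5 and 83.4 CPM with vehicle and 155, 135 and 141 CPM with E2 (log2 0.61, SE 0.0618, adjusted p = 3.31e-07 by limma). Isg20 fell (-0.38), and the regulator gene Irf7 (0.00) was not called. Of 24 NF-kB and chemokine genes 3 rose and 9 fell, or 1 and 12 with median-of-ratios factors. The membrane-bound chemokine Cx3cl1 rose from 32.7 ± 3.13 to 52.3 ± 3.3 CPM (0.66), and Cxcl1 (-0.54), Ccl2 (-0.33), Icam1 (-0.34) and the NF-kB subunit Relb (-0.26) fell. Of 24 complement and serpin genes 3 rose and 3 fell, or 3 and 6 with median-of-ratios factors, with Serpinb2 (0.69) and C2 (0.44) among the risers.

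Clock output genes rose in part. Of 19 tested genes 6 rose and 3 fell (median 0.18), beside 18.6% and 11.4% of all tested genes. Dbp, a clock output factor, stood at 40.3, 35.8 and 36 CPM with vehicle and 66.2, 68.6 and 63.5 CPM with E2 (log2 0.81, SE 0.0673, adjusted p = 2.03e-08 by limma). The repressor genes Nr1d1 (0.54) and Nr1d2 (0.29) rose with it, while Cry1 (-0.42), Per1 (-0.25) and Nfil3 (-0.25) fell, and the core activators Clock (0.06) and Arntl (0.23) were not called. Of 14 tested Kruppel-like factors and relatives Klf15 was the 1 riser, and 5 fell, with Klf6 (-0.31) and Klf4 (-0.24) in the lead. Of 25 immediate early genes 1 rose and 6 fell.

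Proteasome and mitochondrial genes gave few called falls. Over all tested genes 18.6% were called higher and 11.4% lower. Of 37 tested proteasome genes 5 rose and 0 fell, or 3 and 1 with median-of-ratios factors. Of 46 oxidative phosphorylation genes 9 rose and 0 fell as deposited, a share of rises near that of all tested genes, and 2 rose with median-of-ratios factors. Of 46 mitochondrial ribosome genes 2 rose as deposited and 0 with quantile normalization. Of 15 heat shock genes 1 rose and 1 fell, or 0 and 2 with median-of-ratios factors, and 0 of 3 tested nuclear-retained RNAs, whose level can follow RNA handling, were called, with Malat1 at 331 ± 22.8 CPM with vehicle and 398 ± 55.1 CPM with E2.

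**Figure D3:**
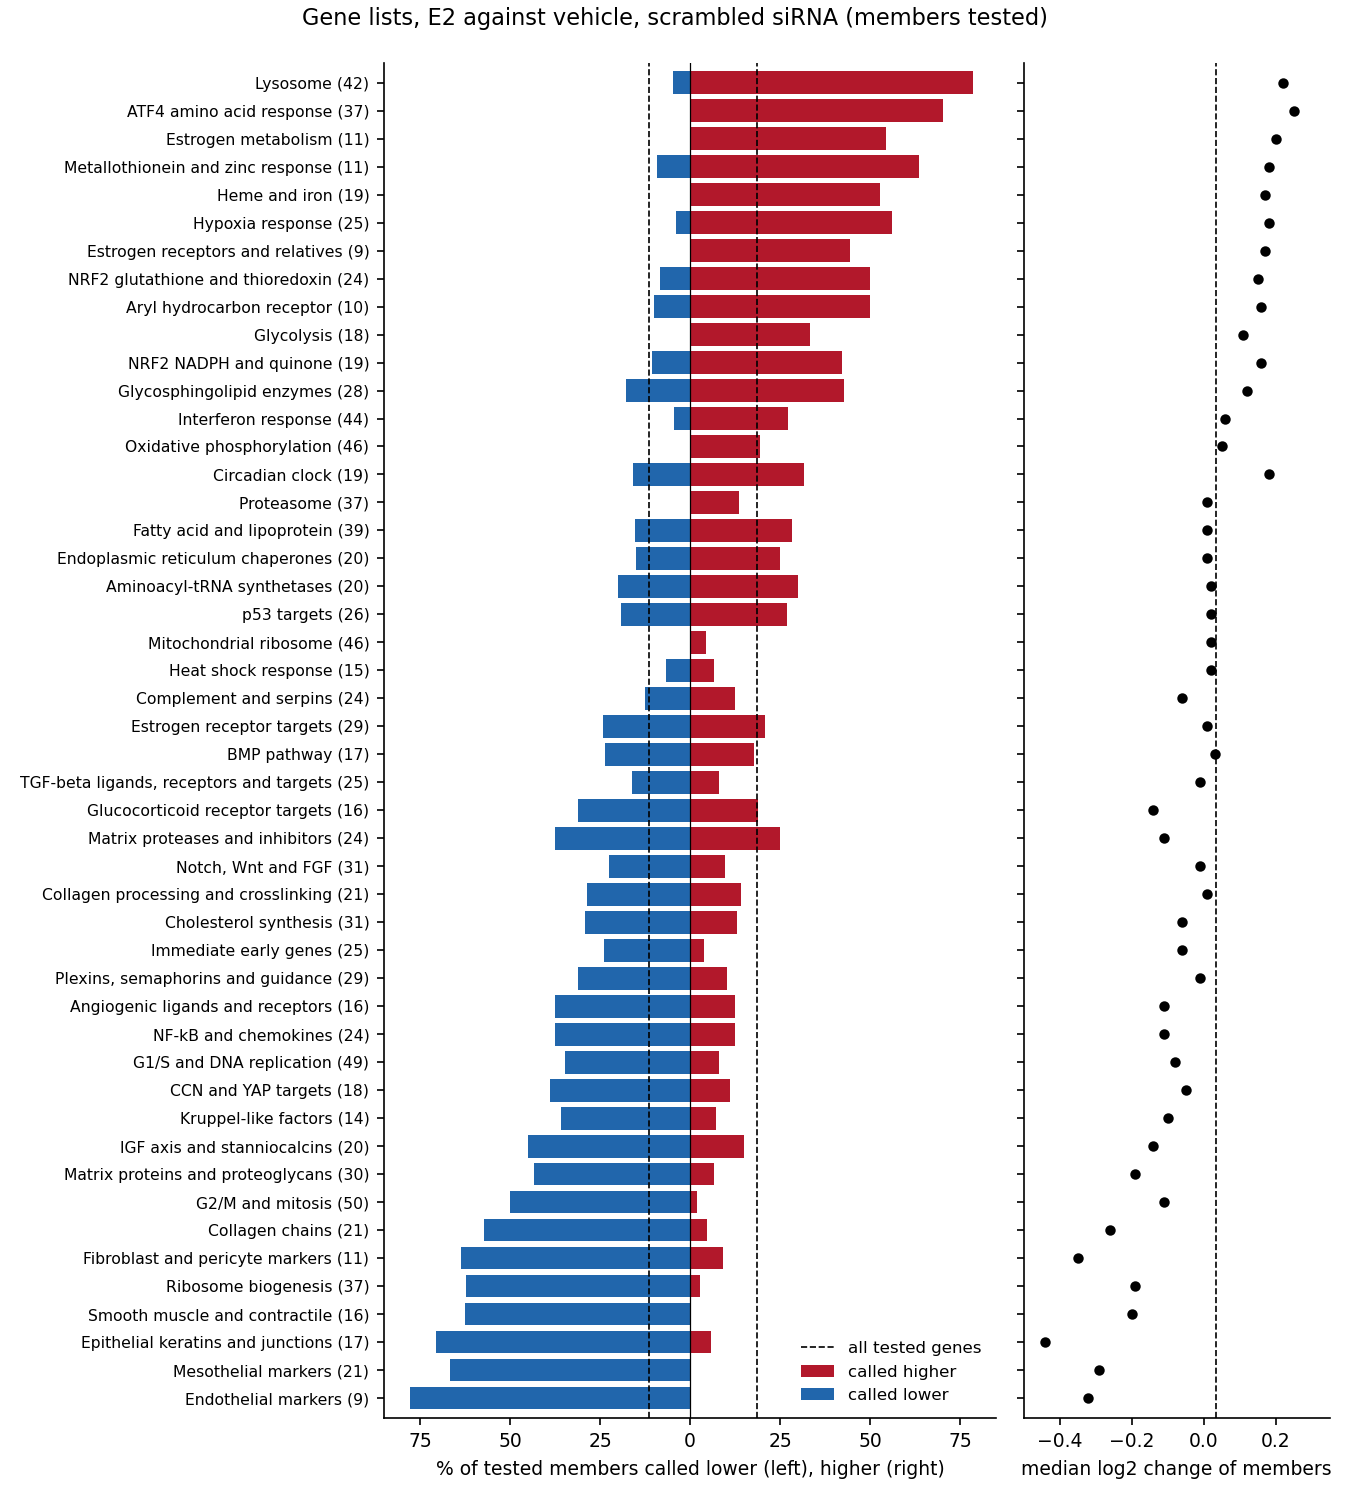
Share of the tested members of each gene list with at least 9 tested members that were called higher (red, right) or lower (blue, left) with E2, with the number tested in brackets and dashed lines at 18.6% and 11.4% for all tested genes, and the median log2 change of the members (right panel, dashed line at 0.034). Lysosome genes (33 of 42 higher) and endothelial markers (7 of 9 lower) lie at the ends.

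Further leading genes belonged to no list. Tacc1, a coiled-coil protein of the centrosome, stood at 106, 110 and 114 CPM with vehicle and 212, 224 and 207 CPM with E2 (log2 0.96, SE 0.052, adjusted p = 3.07e-11 by limma). Dhrs3, which turns retinal back into retinol, stood at 43.6, 41.8 and 45 CPM with vehicle and 83.3, 75.6 and 80.2 CPM with E2 (log2 0.86, SE 0.0628, adjusted p = 3.31e-09 by limma). The interleukin receptor gene Il4ra rose from 17 ± 0.765 to 31.7 ± 0.929 CPM (0.86), the lysoplasmalogenase Tmem86a from 4.09 ± 0.571 to 8.58 ± 0.0589 CPM (0.92) and the histone deacetylase Hdac11 from 0.722 ± 0.42 to 2.36 ± 0.04 CPM (0.99). Falls outside the lists were the ubiquitin ligase Rnf112 from 12.5 ± 2.08 to 4.32 ± 0.411 CPM (-1.33), the synuclein Sncg from 10.2 ± 2.09 to 3.63 ± 0.159 CPM (-1.25), the neuropeptide receptor Adcyap1r1 from 27.1 ± 1.78 to 11.8 ± 1.19 CPM (-1.13), the transcription factor Gata5 from 12.6 ± 0.23 to 5.34 ± 0.205 CPM (-1.10) and the troponin Tnnt2 from 8.62 ± 1.01 to 3.55 ± 0.604 CPM (-1.08). The calls of Alas1, Ctsc, Errfi1, Esrra, Gpx3, Lamp1, Mtf1, Nfil3, Per1, Relb and Tpi1 were each lost in 5 or more of the 14 alternative settings. Each of the 40 genes with the largest rises and falls kept its call and its direction in every one of the 14 alternative settings that tested it. Those of low level had no test in the setting with a minimum of 5 CPM.

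The E2 comparison was also made in cells with siCYP1B1, in 6 libraries that share none with the scrambled comparison. Both comparisons used the same estimate of each gene's spread from all 18 libraries, so their calls are not independent. The siRNA's own target Cyp1b1 was at 81.5 ± 0.724 CPM with vehicle and 103 ± 1.95 CPM with E2 in the libraries labelled siCYP1B1, against 92.2 ± 3.58 CPM with vehicle and 118 ± 1.06 CPM with E2 in the scrambled ones, so that its level was only slightly lower there. With E2, 3257 genes were called (27.5%), and 2424 genes were called in the same direction in both, which is 68.2% of the scrambled and 74.4% of the siCYP1B1 calls. All 42 genes called with a change of at least 2-fold in scrambled cells were called in the same direction with siCYP1B1, with a median log2 change of -1.09 with scrambled siRNA and -1.05 with siCYP1B1. Of 2202 genes called higher, 2165 had the same sign (98.3%) and 0 were called in the opposite direction, and of 1353 called lower, 1334 had the same sign (98.6%). Over all tested genes the sign was the same in 9609 of 11849 (81.1%). The 2 sets of log2 changes gave r = 0.838 and rho = 0.783 over 11849 genes, which share their libraries and are no replicates.

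The difference between the E2 effects in the 2 siRNA groups was tested itself. By limma 0 genes were called for it (0%), and 467 of 11849 had an unadjusted p under 0.05, with no other tool run. Where nothing differs, a share of about 0.05 would fall under that threshold, and the share here was lower. The smallest p-values were those of Stc2 and A4galt. Stc2 rose by 1.50 with scrambled siRNA and by 0.79 with siCYP1B1, a difference of 0.71 (95% interval 0.43 to 0.99, adjusted p = 0.387 by limma). A4galt rose by 1.40 and 0.88, a difference of 0.52 (95% interval 0.29 to 0.74, adjusted p = 0.387 by limma), and Tacc1 by 0.96 and 0.62, a difference of 0.34 (95% interval 0.19 to 0.50, adjusted p = 0.387 by limma). Mt2 rose by 1.72 and Mt1 by 1.09 with siCYP1B1, and Krt18 was at -1.64 there and was called lower.

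**Figure D4:**
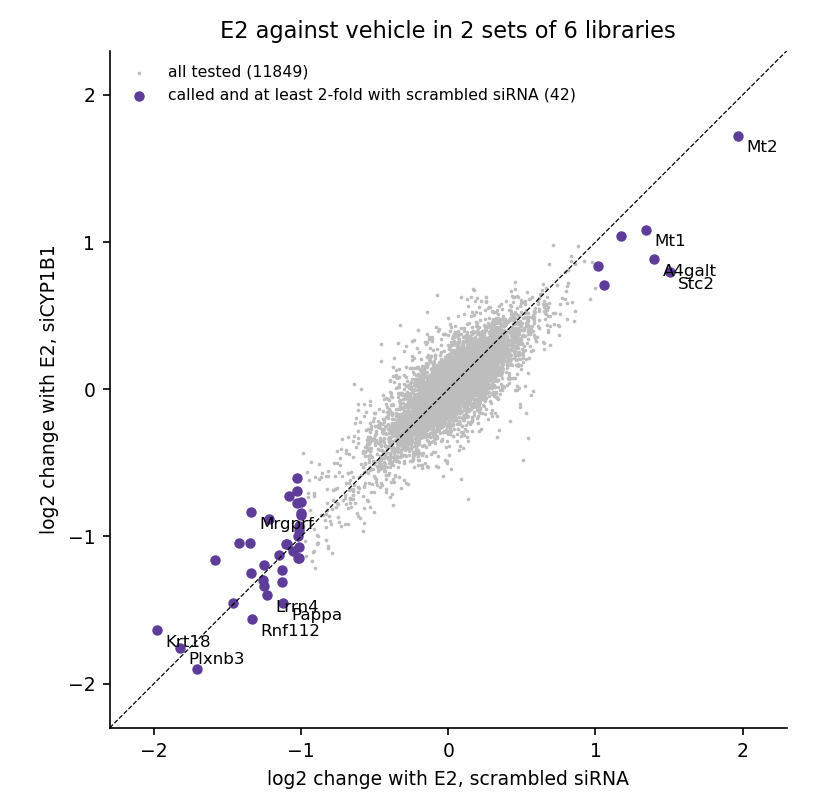
Log2 change with E2 in cells with scrambled siRNA (horizontal axis) and with siCYP1B1 (vertical axis) for 11849 tested genes, with the 42 genes called and changed at least 2-fold in scrambled cells in purple and the line of equal change dashed. All 42 lie in the same quadrant pair, and Stc2 and A4galt lie below the line.

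16aOHE, the usual short name of an estrone that carries an added alpha-hydroxyl group, differs from estradiol by that group and by a ketone in place of the hydroxyl group on the neighbouring carbon. It was given at the same dose and for the same time, and the 2 compounds formed the 1 pair compared. Against the shared vehicle libraries 16aOHE called 453 genes (3.82%), beside 3555 for E2 (30.0%), and the direct contrast of E2 with 16aOHE called 2179 genes (18.4%), 1377 higher and 802 lower with E2. The count for 16aOHE fell to 282 without vehicle library 1 and 283 without vehicle library 2.

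Mt2, Krt18 and Mt1 had the largest differences between the compounds. Mt2 rose by 1.97 with E2 and was at 0.14 with 16aOHE, where it was not called, and the direct difference was 1.83 (95% interval 1.67 to 2.00, adjusted p = 2.86e-12 by limma). Mt1 gave 1.34 and -0.05, with a direct difference of 1.39 (95% interval 1.24 to 1.55, adjusted p = 6.73e-11 by limma). Krt18 gave -1.98 and -0.53, with a direct difference of -1.45 (95% interval -1.73 to -1.17, adjusted p = 4.13e-07 by limma). These genes were chosen for the size of this difference.

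Pdk1, Bnip3, Aldh1l2, Edn1 and Pappa also differed between the compounds. Of the other hypoxia genes that rose with E2, Hk2 (0.28 with E2 and 0.26 with 16aOHE) and Pfkfb3 (0.31 and 0.32) had near values. Values lay further apart for Ak4 (0.83 and 0.08), Epas1 (0.74 and 0.12), Ndrg1 (0.54 and -0.09) and Slc2a1 (0.45 and 0.08). Pdk1 was at 0.82 with E2 and 0.08 with 16aOHE, with a direct difference of 0.74 (95% interval 0.58 to 0.89, adjusted p = 1.38e-06 by limma). Bnip3 was at 0.88 and 0.12, with a direct difference of 0.77 (95% interval 0.56 to 0.97, adjusted p = 1.68e-05 by limma), and Aldh1l2 at 0.98 and 0.25, with a direct difference of 0.72 (95% interval 0.56 to 0.89, adjusted p = 3.8e-06 by limma). Edn1 was at -0.93 and 0.21, with a direct difference of -1.14 (95% interval -1.44 to -0.84, adjusted p = 1.48e-05 by limma), and Pappa at -1.12 and -0.26, with a direct difference of -0.86 (95% interval -1.08 to -0.64, adjusted p = 1.19e-05 by limma). Plxnb3, Klf15, Rnf112, Fgfr1 and Krt14 were the other genes with the largest direct differences, at -1.22, 0.94, -0.90, 0.89 and -0.88.

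Other genes gave close values with both compounds. A4galt was at 1.40 with E2 and 1.43 with 16aOHE, a direct difference of -0.03 (95% interval -0.19 to 0.13, adjusted p = 0.817 by limma). Tacc1 was at 0.96 and 0.96, a difference of 0.00 (95% interval -0.10 to 0.11, adjusted p = 0.97 by limma). Sprr1a was at 1.06 and 1.06, a difference of 0.00 (95% interval -0.17 to 0.18, adjusted p = 0.979 by limma). These intervals bound a possible difference and do not show that the compounds act alike. Il4ra, Dhrs3, Angpt2 and Fam84a were not called in the direct contrast either, at -0.15, 0.08, 0.05 and -0.20, the last 2 with wide intervals (-0.43 to 0.52 and -0.55 to 0.14). Stc2 rose with both, by 1.50 with E2 and 1.05 with 16aOHE, and the direct difference was 0.45 (95% interval 0.25 to 0.65, adjusted p = 0.00208 by limma).

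**Figure D5:**
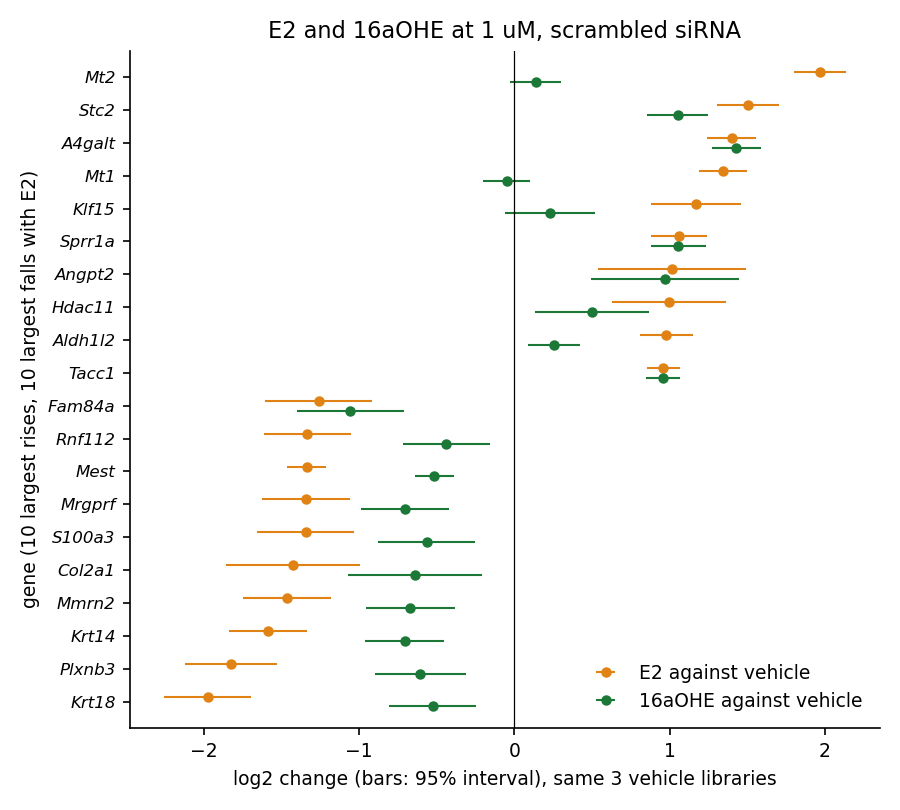
Log2 change against the same 3 vehicle libraries with 1 uM E2 (orange) and 1 uM 16aOHE (green), with 95% intervals, for the 10 genes with the largest rises and the 10 with the largest falls with E2. The genes were picked for their change with E2, Mt1 and Mt2 part most among the rises, and the points of A4galt, Sprr1a and Tacc1 lie close together.

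Promoter composition is given as a description. Over the 9322 tested genes with a RefSeq window, the median promoter had 61.3% G and C and 21 CpG sites. Among genes called and changed by 1.5-fold or more, 100 that fell and 61 that rose had a RefSeq window. The falls had medians of 57.5% and 9 and the rises of 60.3% and 18. The median span of the genes was 15.6 kb among these falls, 21.2 kb among these rises and 22.2 kb over all tested genes. The TEAD motif GGAATG was in 21 of the 100 promoters of these falls (21%), in 3 of the 61 of these rises (4.92%) and in 1088 of 9322 (11.7%). Of the 14 motifs searched others differed too, with the hypoxia core in 14%, the xenobiotic core GCGTG (both strands) in 38% and the E-box in 3% of the promoters of these falls, against 26.1%, 53.1% and 10.5% over all 9322. The hypoxia core ACGTG was in 12 of 19 promoters of the hypoxia list (63.2%) and 2435 of 9322 (26.1%). The antioxidant core (TGAC and GC with 3 bases between) was in 8 of 19 promoters of the glutathione and thioredoxin list (42.1%). It was in 4 of 18 promoters of the NADPH and quinone list (22.2%) and 1381 of 9322 (14.8%). These lists were made of known targets, so their shares describe the lists. By chromosome, the share of tested genes called ran from 25.3% on chromosome X to 34% on chromosome 15, with 0 of 5 tested genes of chromosome Y called.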

How the data were processed

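The series measured RNA from 18 libraries in 6 groups of 3, and 1 table of 15288 genes was used. Per the submitters' processing notes, reads were processed with TopHat2, Partek and the mouse build mm10, with no version, counting setting or use of strand given in those notes. The deposited values were CPM with an offset of 0.0001 added, as read from the values, and were not treated as counts. Columns that matched no sample numbered 0.

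Genes whose level averaged 1 CPM or more in the 6 scrambled vehicle and E2 libraries were tested as log2(CPM + 1), a scale that understates the change of low genes. The test was limma 3.58.1 in R 4.3.3, with 1 coefficient per group over all 18 libraries, a trend of spread with level, and Benjamini-Hochberg adjustment over 11849 genes at a threshold of 0.05. It was tested on simulated data with independent normal noise and few changed genes, which cannot check the scaling of the real values. Depth, and so the counting error behind a CPM value, was estimated from the steps between low values. Intervals are 95% intervals of the log2 difference. Means are given ± SD with n = 3 libraries per group, and replicates were numbered in accession order only.

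Named genes were Cyp1b1, the estrogen receptor genes and Esrra, the 20 largest called changes in each direction without overlap, the 10 largest CPM differences in each direction, up to 6 called members in each direction of each gene list, and the 10 largest differences between E2 and 16aOHE, leaving out predicted genes. A further 76 list members were named after their values were seen, and some named genes are not reported here. The comparison, the gene lists and the rules were chosen with earlier results of these data known, and lists share members. Promoter windows came from RefSeq (GRCm38.p6) and matched 9322 of 11849 tested genes by symbol. Motifs were searched on both strands, and a match is a description, not a site. The 14 alternatives changed the pseudocount, the filter, the scaling, the libraries in the fit, the trend, or left out each of the 6 libraries in turn. Levels of Ftl1, Prdx6 and Actb are uncertain, since processed copies of these genes can share reads, and Mt1 and Mt2 are close paralogs.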

Additional observations from a re-analysis of the deposited data

How the results depend on the processing

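Leaving out 1 of the 6 libraries at a time gave 2802 to 3186 genes called with E2 (1698 to 2036 higher, 1075 to 1240 lower), 39 to 46 of at least 2-fold, 3134 to 3321 with siCYP1B1, 1672 to 2237 for E2 against 16aOHE, 282 to 472 for 16aOHE against vehicle and 0 for the difference between the siRNAs. The other 8 settings gave 3159 to 3573 genes called with E2 (1518 to 2223 higher, 1186 to 1795 lower). The count of at least 2-fold, 42 as reported, was 103 with log2(CPM + 0.1), 10 with log2(CPM + 5) and 27 with a minimum of 5 CPM, where fewer genes were tested. Of the 3555 calls, 75.8% to 82.4% were shared with the fits that left out a library and 80.8% to 99.5% with the others. Of 377 called genes that were followed singly, 96 lost the call in at least 1 alternative, and 0 reversed. Of those in the text, Aldoa, Calr, Ccl2, Ccnd2, Cers5, Ctsd, Cxcl1, Cxcl12, Egln3, Fabp5, Hif1a, Icam1, Id1, Id2, Idua, Igfbp3, Irs1, Irs2, Ncoa3, Pdgfrb, Pmvk, Slc30a1, Slc39a14 and Xbp1 lost it in fewer than 5. Of genes not called, Col4a2, Esr1, Fn1, Ldha, Malat1 and Pkm were called in 1 or 2. The causes were not tested. No paired analysis was possible because the labels carry no replicate numbers.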
